A study of Homo sapiens with 8 samples.

Results

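The p53 target genes described here are 31 genes chosen by symbol as direct transcriptional targets of p53. The rule for the symbols uses no measured value, but the choice was made with earlier results of these data known. Of the 31 genes, 30 were matched to 44 probes of the array, out of 19483 genes and 42405 probes in all. CYFIP2, for which no probe was matched, was not analysed here. Each gene is described by its brightest probe at 24 h, and all 30 of these probes were well above background on all 8 arrays, so that no gene entered only through the group in which it was high.

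Total RNA was measured on 1-colour Agilent arrays in U87 cells, an established human glioblastoma line, reverse-transfected either with siRNA that silences RND3 (siRND3) or with a non-silencing control siRNA (siControl). There were 3 siControl and 3 siRND3 arrays at 24 h after transfection, and 1 array of each at 48 h. More than 1 siRNA against RND3 is named in the methods and its match to arrays is not given, and nothing says that replicates were transfected separately, so p-values measure the spread between these arrays, which may be technical. Values are log2 of the processed, quantile-normalised probe intensity. Each is a bulk value, in which fewer expressing cells and less RNA per cell cannot be told apart.

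The targeted gene was measured first. The log2 values of RND3 were 11.88, 11.91 and 11.90 on the siControl arrays at 24 h and 10.12, 10.18 and 10.42 on the siRND3 arrays, a difference of -1.66 ± 0.10 (SE, n = 3 arrays per group, limma adjusted p = 0.000345), and the difference between the single arrays at 48 h was -1.65. All 8 arrays lay on 1 slide, with siRND3 in 1 row and siControl in the other, so the row of the slide and the siRNA given cannot be told apart. Between 68.3% and 70.7% of probes were well above background per array. Of the markers of the line, VIM, NES and CD44 were well above background on all 8 arrays, OLIG2 on 7, S100B on 1 and GFAP on 0. With siRND3, NES was 0.41 higher (adjusted p = 0.0472), while CD44 and OLIG2 differed by -0.58 and -1.40 (adjusted p = 0.00721 and 0.00165). Of the 3 markers of other cell types, PECAM1 fell by 0.99 (adjusted p = 0.0216), and PTPRC and EPCAM did not pass (adjusted p = 0.211 and 0.275). Their mean log2 value ranged from 5.38 to 5.78 over the siControl arrays at 24 h and from 5.26 to 5.49 over the siRND3 arrays, and was 6.10 and 4.84 on the single arrays at 48 h. The effect of siRND3 also differed between the times for NES (by 1.69, adjusted p = 0.0233, with a fall of 2.07 within siControl), CD44 (by -1.54, adjusted p = 0.0181) and PECAM1 (by -2.45, adjusted p = 0.0341). The part of these markers in the results on p53 targets was not tested.

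The p53 protein is a transcription factor that is held at a low level by the ubiquitin ligase MDM2 and is stabilised by DNA damage and other stress. It then binds DNA as a tetramer at paired half-sites and activates genes that stop the cell cycle, start apoptosis, repair DNA and adjust metabolism, among them genes such as MDM2 and PPM1D that turn p53 down again. Gliomas commonly weaken this response through amplification of MDM2 or MDM4.

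The p53 half-site is a 10-base motif that reads the same on both strands. It was looked for in RefSeq windows from 250 bases before to 50 bases after each annotated transcript start (GRCh38.p14), of which 26 members had at least 1, 37 in all. A half-site without mismatch was present in 6 of these 37 windows (16.2%), in AEN, DDB2, FDXR, PLK2, RPS27L and SESN1, and in 2329 of 35116 windows of all genes (6.63%). DDB2 was the only member in which a pair of half-sites without mismatch, at most 13 bases apart, was found, against 10 of all windows (0.0285%). With 1 mismatch allowed in each half-site, such a pair was present in windows of CCNG1, DDB2, MDM2 and SESN1 (6 of 37 windows, 16.2%) and in 5.25% of all windows. The stretches below come from genes that carry the motif near a start site. Of these genes FDXR passed the test at 24 h and the others did not. The pairs with mismatches in CCNG1 and SESN1 are not shown. A match describes the sequence alone. Capitals mark the half-sites, which in MDM2 each hold 1 mismatch. The stretches lie at chr11:47214975-47215004 (plus strand) for DDB2, chr17:74872986-74873015 (minus strand) for FDXR, chr12:68808923-68808942 (plus strand) for MDM2, chr6:109009018-109009047 (minus strand) for SESN1, chr5:58460199-58460228 (minus strand) for PLK2, chr15:88621296-88621325 (plus strand) for AEN and chr15:63157517-63157546 (minus strand) for RPS27L.
DDB2: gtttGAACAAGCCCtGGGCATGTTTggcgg
FDXR: gggcaggagcGGGCTTGCCCtgcggagcag
MDM2: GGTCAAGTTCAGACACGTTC
SESN1: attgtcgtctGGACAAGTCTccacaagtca
PLK2: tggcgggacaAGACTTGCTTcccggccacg
AEN: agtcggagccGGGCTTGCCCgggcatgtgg
RPS27L: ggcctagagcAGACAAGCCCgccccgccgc

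Silencing of RND3 was accompanied at 24 h by higher values of 7 members and lower values of 3, and the 3 that fell had the largest differences of these 10. BBC3 and BTG2 rose most, by 0.80 and 0.62 on the log2 scale, and TP53INP1, TIGAR and POLH fell by 1.20, 1.03 and 0.92. That ranking depended on background correction. With normexp correction BBC3, at 0.73, was ahead of TIGAR and POLH, at -0.71 and -0.70, but not of TP53INP1, at -0.79. The other 20 members did not pass the test, among them MDM2, BAX and PMAIP1. The comparison asked which members differed between siRND3 and siControl by limma at an adjusted p of 0.05, with adjustment over all 28759 probes tested.

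Read as shares, 23.3% of the 30 members were up-regulated against 6.51% of the 14797 genes tested, and 10% were down-regulated against 8.27%. The share of members that fell was thus near that of all genes. All 3 siRND3 arrays lay above all 3 siControl arrays in 12 members (40%), against 23.7% of all genes, and below them in 9 (30%), against 17.5%. In the remaining 9 members the groups overlapped. The median difference of the members was 0.04, as it was for all genes tested, and their quartiles were -0.13 and 0.31, against -0.13 and 0.19 for all genes. An exact two-sided permutation test with 3 arrays against 3 cannot go below p = 0.1, and each of the 21 members without overlap had this value. The count of members that rose was lower with any 1 array left out. Without any one of the siControl arrays 2 members rose, BBC3 and BTG2, and without any one of the siRND3 arrays 3 did (FBXO22 in addition without replicate 1, PERP without replicate 2 and PPM1D without replicate 3). The differences of the other 5 stayed near their values with any array left out, at 0.30 to 0.38 for FDXR, 0.37 to 0.52 for XPC, 0.30 to 0.38 for PPM1D, 0.31 to 0.36 for FBXO22 and 0.31 to 0.43 for PERP.

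**Figure D1:**
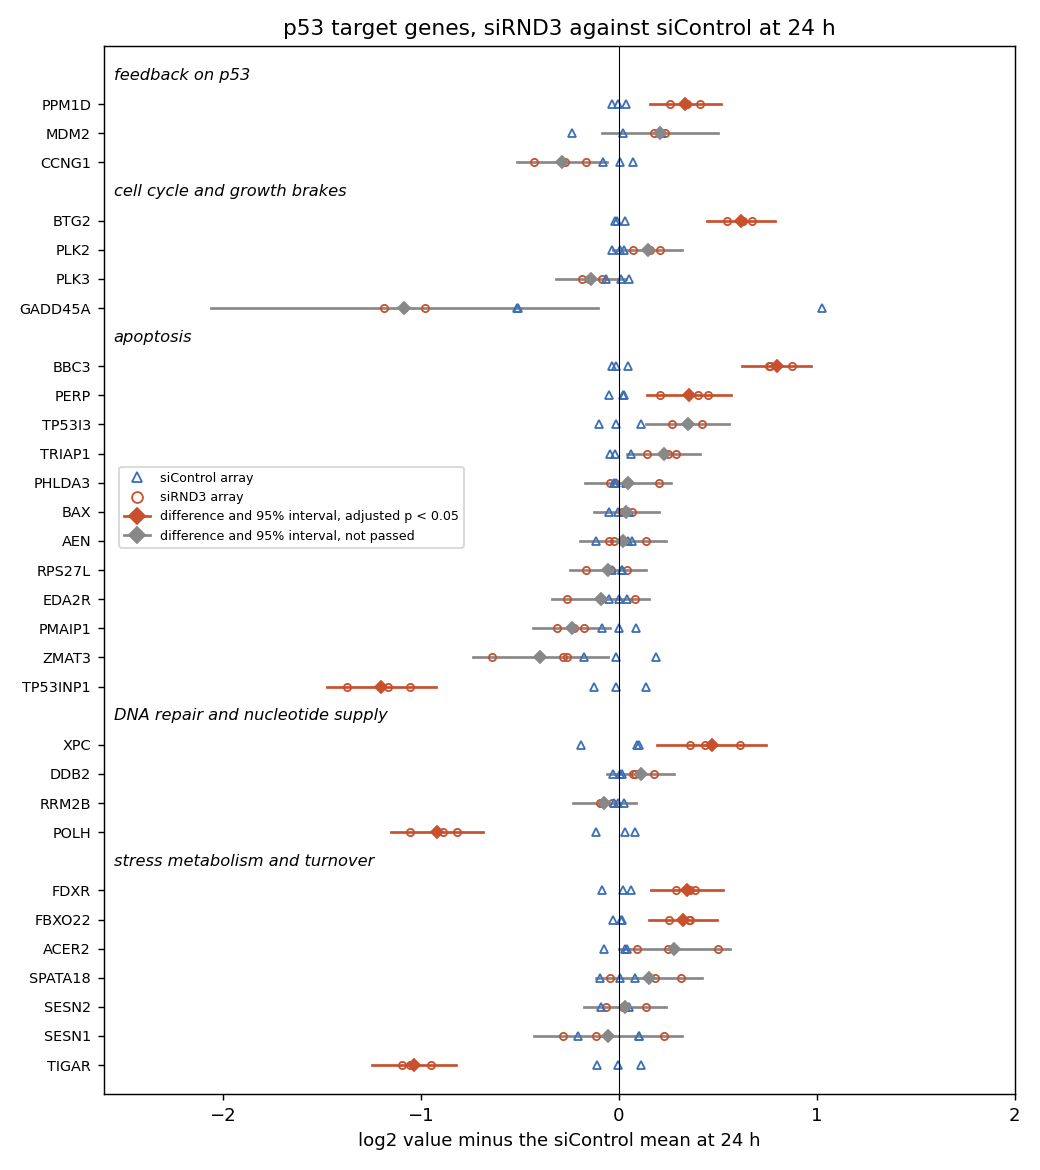
Log2 value of each of the 30 p53 target genes on the 6 arrays at 24 h, minus the siControl mean of that gene (x axis), grouped by role. Triangles are siControl arrays, open circles siRND3 arrays, and diamonds with lines the difference of the means with its 95% interval, orange where the adjusted p was under 0.05. The differences run from -1.20 for TP53INP1 to 0.80 for BBC3, and the interval of GADD45A is the widest.

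Of the 3 members that feed back on p53, 1 was up-regulated and 2 did not pass. PPM1D, the phosphatase WIP1 that removes activating phosphates from p53 and its kinases, had log2 values of 8.24, 8.17 and 8.20 with siControl and 8.61, 8.55 and 8.46 with siRND3. The groups did not overlap, and the difference was 0.34 ± 0.07 (SE, limma adjusted p = 0.0354). The second PPM1D probe was 0.20 higher and did not pass (adjusted p = 0.143). MDM2, the ligase that marks p53 for degradation, measured 8.34, 8.79 and 8.60 with siControl and 8.81, 8.79 and 8.76 with siRND3. Its siRND3 arrays were close together and within the range that the siControl arrays spanned, apart from 1 that lay just above it. The difference was 0.21 ± 0.12 (95% interval -0.08 to 0.50, adjusted p = 0.32), and the other 2 MDM2 probes gave -0.03 and 0.00. CCNG1, cyclin G1, which recruits a phosphatase to MDM2, had values of 9.68, 9.53 and 9.62 with siControl and 9.18, 9.34 and 9.45 with siRND3. Every siRND3 array of CCNG1 lay below every siControl array, but its difference of -0.29 ± 0.09 did not pass (adjusted p = 0.105). It passed in 2 of 15 alternatives. A second CCNG1 probe gave -0.29 (adjusted p = 0.0871).

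Among the 4 brakes on the cell cycle and growth, BTG2 rose and the other 3 did not pass. BTG2 is an antiproliferative protein that binds the CCR4-NOT deadenylase. Its log2 values were 8.20, 8.21 and 8.25 on the siControl arrays and 8.77, 8.85 and 8.90 on the siRND3 arrays. The groups were far apart relative to the spread within each, and the difference was 0.62 ± 0.07 (SE, n = 3 arrays per group, limma adjusted p = 0.00383). GADD45A, a growth arrest gene induced by DNA damage, had values of 11.36, 12.89 and 11.35 with siControl and 10.68, 10.78 and 10.89 with siRND3. All siRND3 arrays were below all siControl arrays, and siControl replicate 2 stood more than 1 log2 unit above its 2 fellow replicates. The difference of -1.08 ± 0.41 did not pass (95% interval -2.06 to -0.11, adjusted p = 0.144). Without siControl replicate 2 it was -0.57 and passed (adjusted p = 0.0346, against 0.0346 to 0.272 over all alternatives), and SAM, the test in the methods, called it with all 6 arrays. The kinases PLK2 and PLK3 differed by 0.15 and -0.14 (adjusted p = 0.242 and 0.268), with no overlap between the groups for either.

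The apoptosis genes formed the largest group, with 12 of 13 genes measured, of which 2 rose, 1 fell and 9 did not pass. BBC3 encodes PUMA, a BH3-only protein that binds the anti-apoptotic BCL2 proteins. It measured 8.93, 9.01 and 8.95 with siControl and 9.72, 9.83 and 9.72 with siRND3. No siRND3 array came near the siControl range, and the difference of 0.80 ± 0.07 (SE, limma adjusted p = 0.0015) was the largest rise among the members. PERP, a membrane protein of desmosomes and an apoptosis effector, had values of 12.20, 12.21 and 12.13 with siControl and 12.63, 12.39 and 12.58 with siRND3. All siRND3 arrays were higher, replicate 2 by the least, and the difference was 0.35 ± 0.09 (adjusted p = 0.0491), just inside the threshold. TP53INP1, a stress protein that promotes apoptosis and autophagy and helps to phosphorylate p53, went the other way. Its values were 7.71, 7.60 and 7.86 with siControl and 6.35, 6.55 and 6.67 with siRND3. The groups were far apart, with a difference of -1.20 ± 0.11 (adjusted p = 0.00182), the largest called difference of any member, and a second probe also fell, by 0.89 (adjusted p = 0.00904). With normexp background correction the TP53INP1 difference was -0.79 and still passed.

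The BCL2 family members other than BBC3 did not pass. BAX, which permeabilises the mitochondrial outer membrane, measured 12.57, 12.62 and 12.52 with siControl and 12.64, 12.59 and 12.60 with siRND3. These ranges overlapped, and the difference was 0.04 ± 0.07 (95% interval -0.13 to 0.20, adjusted p = 0.764), while a second BAX probe gave 0.18 (adjusted p = 0.246). PMAIP1 encodes NOXA, a BH3-only protein like PUMA, and had values of 9.55, 9.37 and 9.46 with siControl and 9.23, 9.15 and 9.29 with siRND3. Here all siRND3 arrays were below all siControl arrays, unlike BBC3, but the difference of -0.24 ± 0.08 did not pass (adjusted p = 0.115).

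The other 7 apoptosis genes that did not pass spanned -0.40 to 0.35. TP53I3, a quinone oxidoreductase, was just outside the threshold at 0.35 (adjusted p = 0.0507), and its second probe gave 0.29 (adjusted p = 0.0593). TRIAP1, an inhibitor of apoptosis, differed by 0.23 (adjusted p = 0.111), and the RNA-binding protein ZMAT3 by -0.40 (adjusted p = 0.129), with no overlap in either. PHLDA3, which competes with AKT for membrane lipids, the nuclease AEN, the ribosomal protein paralogue RPS27L and the TNF receptor family member EDA2R lay between -0.09 and 0.05, all with overlapping groups.

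**Figure D2:**
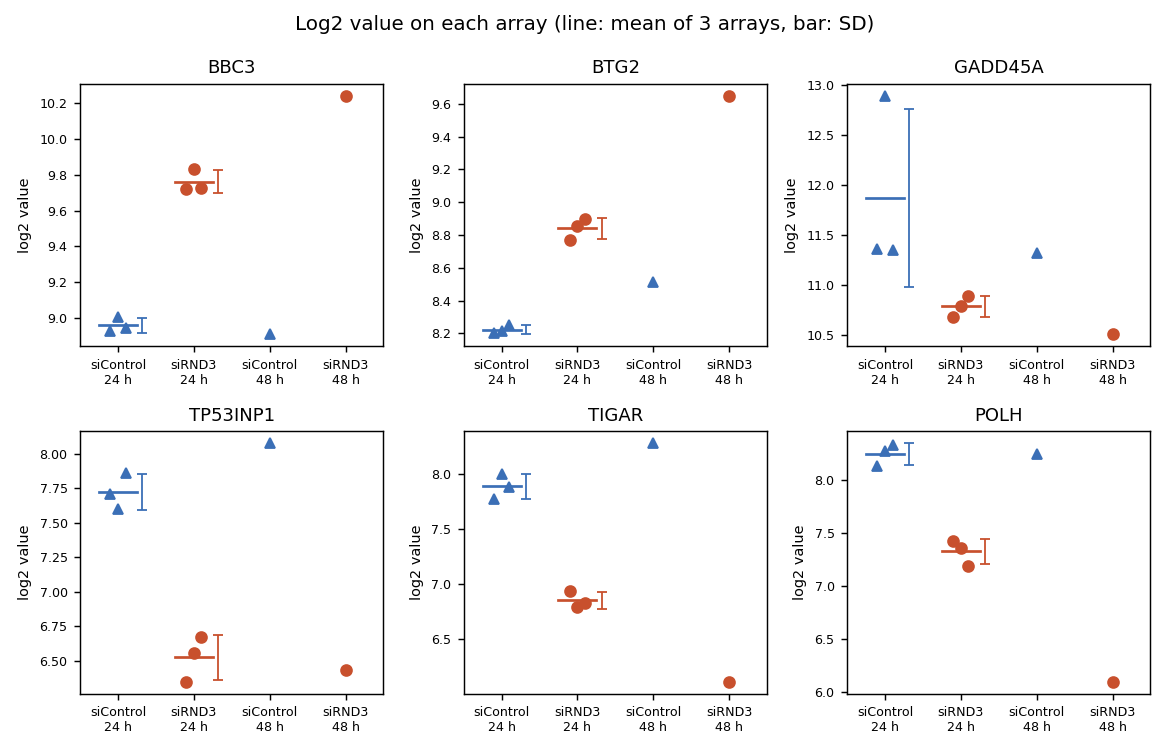
Log2 value (y axis, own range per panel) of BBC3, BTG2, GADD45A, TP53INP1, TIGAR and POLH on each of the 8 arrays, with the mean (line) and SD (bar) of the 3 arrays of each group at 24 h. The siRND3 arrays lie above the siControl arrays at both times for BBC3 and BTG2 and below them for the other 4 genes, and siControl replicate 2 of GADD45A stands at 12.89.

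DNA repair and nucleotide supply held 1 member that rose, 1 that fell and 2 that did not pass. XPC, the damage sensor of global nucleotide excision repair, had log2 values of 8.43, 8.14 and 8.42 with siControl and 8.69, 8.94 and 8.77 with siRND3. Each siRND3 array was above each siControl array, and the difference was 0.47 ± 0.11 (SE, limma adjusted p = 0.0467). POLH is the translesion polymerase eta, which copies past ultraviolet damage. It measured 8.13, 8.27 and 8.33 with siControl and 7.43, 7.36 and 7.19 with siRND3. The siRND3 arrays were all lower by more than the range of either group, and the difference was -0.92 ± 0.10 (adjusted p = 0.00265). A second POLH probe gave -0.85 and missed the threshold (adjusted p = 0.0816). DDB2, which brings XPC to ultraviolet lesions and carries the pair of half-sites shown above, differed by 0.11 ± 0.07 (adjusted p = 0.356). RRM2B, the p53-inducible subunit of ribonucleotide reductase, had values of 7.95, 7.93 and 7.98 with siControl and 7.86, 7.87 and 7.92 with siRND3 at 24 h, a difference of -0.07 ± 0.07 (adjusted p = 0.534). Neither of these genes had overlapping groups, although their differences were small.

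In stress metabolism and protein turnover, 2 of 7 members rose, 1 fell and 4 did not pass. FDXR, the mitochondrial ferredoxin reductase, measured 12.66, 12.77 and 12.81 with siControl and 13.04, 13.11 and 13.13 with siRND3. The groups were apart, with a difference of 0.35 ± 0.08 (SE, limma adjusted p = 0.0347). FBXO22, a substrate receptor of an SCF ubiquitin ligase, had values of 10.54, 10.58 and 10.59 with siControl and 10.82, 10.93 and 10.93 with siRND3. Again no arrays overlapped, and the difference was 0.32 ± 0.07 (adjusted p = 0.0336), while a second probe gave 0.12 (adjusted p = 0.701). TIGAR, a phosphatase that lowers fructose-2,6-bisphosphate and so restrains glycolysis, had values of 7.77, 7.997 and 7.88 with siControl and 6.93, 6.79 and 6.83 with siRND3. It fell on every siRND3 array, by 1.03 ± 0.09 on average (adjusted p = 0.00119), the smallest adjusted p of any member.

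The sestrins, which restrain mTORC1 and limit oxidative stress, did not differ beyond their spread. SESN1 measured 7.15, 6.84 and 7.15 with siControl and 6.77, 6.93 and 7.27 with siRND3. SESN2 measured 8.54, 8.41 and 8.55 with siControl and 8.44, 8.64 and 8.52 with siRND3. In both genes the arrays of the groups were interleaved. The differences were -0.05 ± 0.16 for SESN1 (95% interval -0.43 to 0.32, adjusted p = 0.856) and 0.03 ± 0.09 for SESN2 (95% interval -0.17 to 0.24, adjusted p = 0.846). The alkaline ceramidase ACER2 differed by 0.28 (adjusted p = 0.175) and SPATA18, a mediator of mitochondrial quality control, by 0.15 (adjusted p = 0.427). A second ACER2 probe, well above background on 7 arrays, gave a larger difference of 0.90 that did not pass either (adjusted p = 0.191).

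At 48 h the members that were at least 2-fold apart were all among those that had passed at 24 h, in the same direction, although 1 array per group gave no replicate check. At least 2-fold higher with siRND3 were 4 members (13.3%, against 4.63% of all genes), namely PERP, BBC3, XPC and BTG2, which were 3.03-fold, 2.51-fold, 2.46-fold and 2.2-fold higher. At least 2-fold lower were 3 members (10%, against 6.82% of all genes), namely TIGAR, POLH and TP53INP1, which were 4.48-fold, 4.44-fold and 3.11-fold lower. The folds of TIGAR and POLH were smaller with normexp background correction. With it their log2 differences at 24 h were -0.71 and -0.70, and the further shifts to 48 h were -0.66 and -0.75. The other members that had passed at 24 h, FBXO22, FDXR and PPM1D, were higher at 48 h by 0.70, 0.60 and 0.36 on the log2 scale. The second FBXO22 probe went the other way at 48 h, at -0.19. The differences at both times had the same sign in 27 of 30 members (90%) and in 75% of all genes tested. The exceptions were ACER2, DDB2 and RPS27L. The median difference of the members was 0.16 at 48 h, against 0.06 for all genes.

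**Figure D3:**
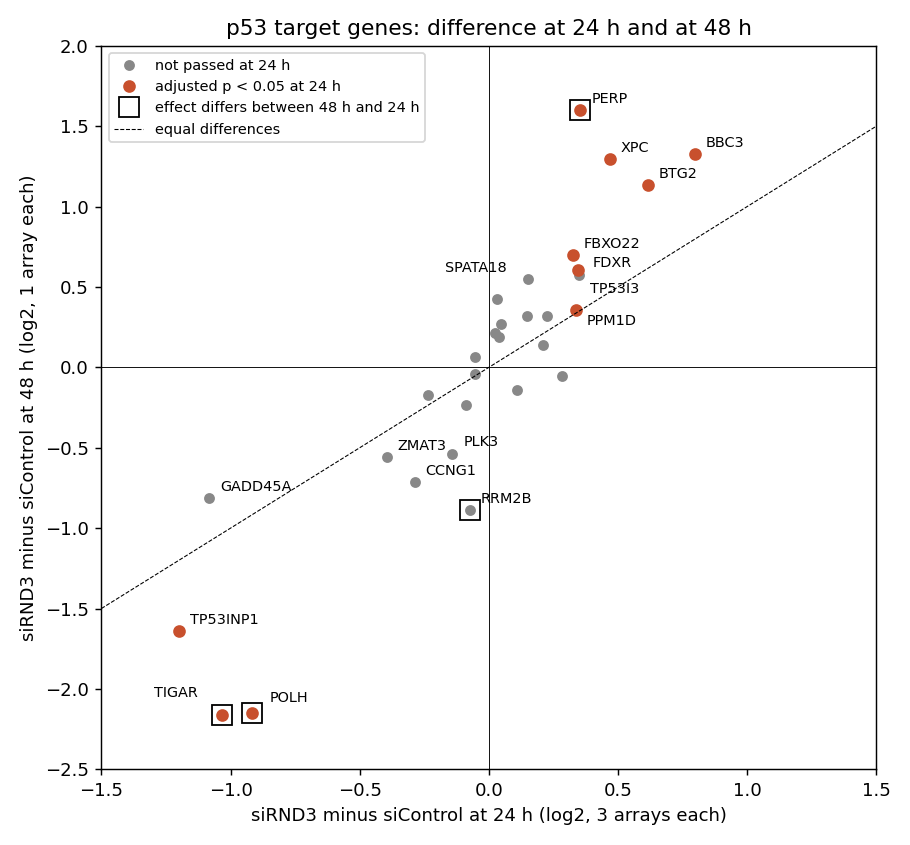
Difference between siRND3 and siControl (log2) of each of the 30 p53 target genes at 24 h (x axis, 3 arrays per group) and at 48 h (y axis, 1 array per group). Orange points passed at 24 h, squares mark genes whose difference itself differed between the times, and the dashed line marks equal differences. Of the genes with squares, PERP lies above the dashed line and POLH, TIGAR and RRM2B lie below it.

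Whether the effect of siRND3 differed between the times was tested in a limma model of 4 groups over all 8 arrays, which takes the spread of each lone 48 h array from the replicates at 24 h. It differed in 4 members (13.3%), against 3.67% of all genes tested. For PERP the siControl array fell from a mean of 12.18 at 24 h to 10.99 at 48 h, while siRND3 went from a mean of 12.53 to 12.59. Its effect was thus 1.25 ± 0.18 larger at 48 h (adjusted p = 0.0289), and the change with time passed within siControl (-1.19, adjusted p = 0.0133) and did not pass within siRND3 (0.06, adjusted p = 0.809).

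In the other 3 members the change with time passed within siRND3 and not within siControl. POLH measured 8.24 with siControl and 6.09 with siRND3 at 48 h, and its effect differed from that at 24 h by -1.23 ± 0.19 (adjusted p = 0.0358). A second POLH probe, well above background on 6 of the 8 arrays, gave -1.33 and did not pass (adjusted p = 0.233). TIGAR measured 8.27 and 6.11, with a difference between the effects of -1.13 ± 0.18 (adjusted p = 0.0361). RRM2B measured 8.22 and 7.34, with -0.82 ± 0.13 (adjusted p = 0.0375), so that a gene with hardly any difference at 24 h was 1.85-fold lower at 48 h. Its second probe gave -0.77 (adjusted p = 0.0616). The count of 4 dropped to 0 without any one of the siControl arrays or without siRND3 replicate 1, and to 1 without siRND3 replicate 2 (PERP) or replicate 3 (POLH), while the differences ranged over 1.17 to 1.29 for PERP, -1.30 to -1.18 for POLH, -1.19 to -1.07 for TIGAR and -0.83 to -0.80 for RRM2B. With normexp background correction the differences between the effects were -0.75 for POLH and -0.66 for TIGAR, and both still passed.

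**Figure D4:**
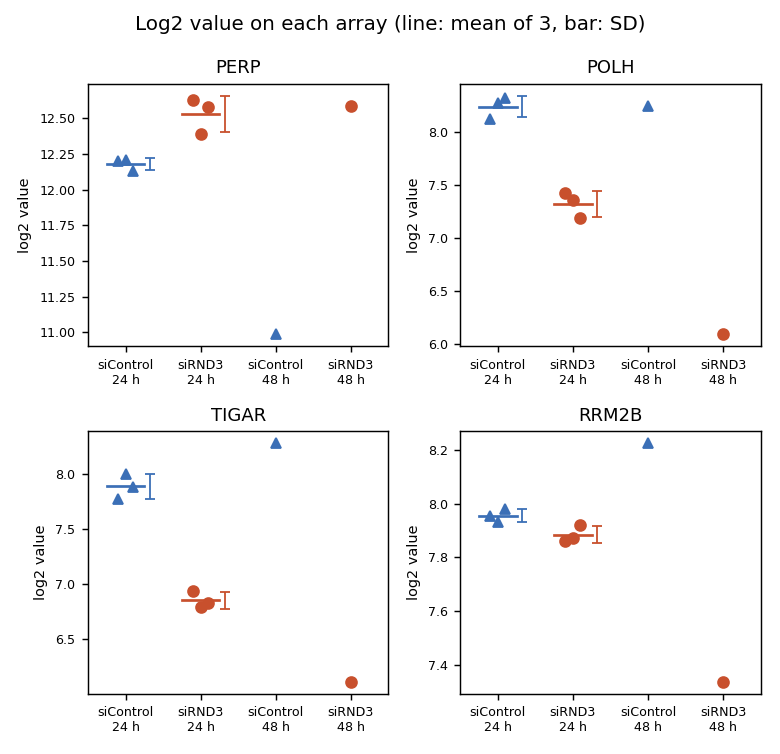
Log2 value (y axis, own range per panel) of PERP, POLH, TIGAR and RRM2B on each of the 8 arrays, with the mean (line) and SD (bar) of the 3 arrays of each group at 24 h. In PERP the siControl array at 48 h, at 10.99, stands apart from the others, and in POLH, TIGAR and RRM2B it is the siRND3 array at 48 h, at 6.09, 6.11 and 7.34.

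From 24 h to 48 h within siControl, PERP was the only member that passed in limma (3.33% of members, against 4.64% of all genes), and 10 members (33.3%) had an unadjusted p under 0.05, against 23.3% of all genes. This call was lost without any one of the siControl arrays. Within siRND3, 5 members passed (16.7%, against 11.3% of all genes). BTG2 and BBC3 rose further, by 0.81 ± 0.10 and 0.48 ± 0.10 (adjusted p = 0.00763 and 0.037). POLH, TIGAR and RRM2B fell by 1.23, 0.74 and 0.55 (adjusted p = 0.00553, 0.0186 and 0.0192). A second RRM2B probe did not pass within siRND3 (adjusted p = 0.119), while a second POLH probe did (adjusted p = 0.0334). For BBC3 the siControl array at 48 h stayed at 8.91 while the siRND3 array reached 10.24, and for BTG2 they stood at 8.52 and 9.65. The count within siRND3 was 3 without siControl replicate 1 or 3. For BAX the brightest probe did not pass within siRND3 (adjusted p = 0.339) but a second probe did (adjusted p = 0.0205).

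Of the 12 regulators of p53 tested at 24 h with limma, 1 was up-regulated and 0 were down-regulated, while 3 (25%) had an unadjusted p under 0.05, against 32.8% of all genes. The share up-regulated was 8.33%, beside 6.51% of all genes. These counts use the brightest probe. HIPK2, a kinase that phosphorylates p53, did not pass by that probe (-0.36, adjusted p = 0.063), but its second probe fell by 0.96 (adjusted p = 0.00492), and was -1.70 at 48 h. MDM4, a partner of MDM2 that represses p53, measured 7.69, 7.91 and 7.68 with siControl and 8.01, 7.90 and 8.03 with siRND3. The groups overlapped, at a difference of 0.22 ± 0.09 (adjusted p = 0.18). CHEK1, a checkpoint kinase activated by stalled replication, was the regulator that rose, from 8.92, 9.01 and 8.95 with siControl to 9.30, 9.38 and 9.43 with siRND3, by 0.41 ± 0.07 (adjusted p = 0.0181).

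Of 19 further direct p53 targets, 2 rose (10.5%, against 6.51% of all genes) and 5 fell (26.3%, against 8.27%). GDF15, a secreted stress cytokine, had values of 14.72, 14.66 and 14.80 with siControl and 13.67, 13.70 and 13.67 with siRND3. The groups were tight and far apart, with a difference of -1.05 ± 0.07 (adjusted p = 0.000554) that reached -2.02 at 48 h. ATF3, a stress-induced transcription factor, measured 11.73, 11.61 and 11.74 with siControl and 11.12, 10.99 and 11.17 with siRND3 (-0.60 ± 0.08, adjusted p = 0.00723). Of the 3 other ATF3 probes, 1 also fell and 2 did not pass, at 0.11 and -0.30 (adjusted p = 0.656 and 0.102). E2F7, a repressor of cell cycle genes, measured 11.75, 11.70 and 11.64 with siControl and 11.20, 11.02 and 11.26 with siRND3 (-0.54 ± 0.09, adjusted p = 0.0132). KITLG, the ligand of the receptor KIT, measured 8.60, 8.62 and 8.70 with siControl and 8.12, 7.79 and 8.25 with siRND3 (-0.59 ± 0.13, adjusted p = 0.0336). None of these genes had overlapping groups.

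The smallest of the 5 falls was that of NINJ1, a protein that mediates plasma membrane rupture, with 13.82, 13.79 and 13.80 for siControl and 13.51, 13.51 and 13.50 for siRND3 (-0.30 ± 0.06, adjusted p = 0.0321). FAM210B, a mitochondrial protein, rose from 10.61, 10.43 and 10.60 to 11.005, 11.19 and 11.20 (0.58 ± 0.09, adjusted p = 0.0119), and DRAM1, a lysosomal regulator of autophagy, from 10.60, 10.66 and 10.71 to 10.92, 10.999 and 11.04 (0.33 ± 0.07, adjusted p = 0.0349). Here too the groups did not overlap. CDKN1A, which encodes the cell cycle inhibitor p21, did not pass, at -0.39 ± 0.15 (adjusted p = 0.145). Without any one of the siControl arrays, 3 or 4 of these 31 regulators and further targets passed in place of 8.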

How the data were processed

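Total RNA from U87 cells was hybridised to 8 Agilent arrays with 1 colour, 1 array per sample, and groups were taken from the labels. The authors read the scans with Agilent Feature Extraction 10.7.3.1, and the scanner files they deposited give linear spot intensity, with the processed signal corrected for background within each array. A deposited table of log2 values by the authors, quantile-normalised as the methods state, kept the rank order of the spot median signal. The number of arrays limits the precision.

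Here, processed intensity was put on the log2 scale and quantile-normalised between all 8 arrays on the spots that were not controls (4259 of 62976 spots were controls). Spots marked as outliers were then left out and spots of a probe averaged. A probe was well above background where at least 50% of its spots were so marked, and those that were so on each of the 3 arrays of either group at 24 h entered the tests (28759 probes). Probes were named by RefSeq accession through the gene table of GRCh38.p14 (25422 probes, 19483 genes), and each gene was taken by its brightest probe at 24 h, which gave 14797 genes tested. Limma 3.58.1 in R 4.3.3 was run on the 6 arrays at 24 h, and in a model of 4 groups for the times, and p-values were adjusted by Benjamini-Hochberg across every tested probe, with 0.05 as the threshold. The code was tested on simulated data.

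The members, the roles, the list of other pathway genes and the tests were chosen with earlier results of these data known, and no test was made on the list as a whole. Values on every array are given for members that passed at 24 h or in the difference between the times, for MDM2, BAX, BBC3, PMAIP1, GADD45A, CCNG1, SESN1, SESN2, PPM1D and BTG2 whatever their result, for MDM4, and for other pathway genes that passed. A gene of the pathway list is not reported here. As alternatives, results were recomputed with scaling to the 75th percentile, with normexp background correction (offset 50, on the spot median), from the authors' deposited log2 values, without a filter on dim probes or with a stricter one, and with each gene taken as the average of its probes. They were also recomputed by significance analysis of microarrays (SAM, the test in the methods) at 5%, with the replicate number as a block, with all 8 arrays in the fit, and without each array at 24 h in turn.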

Additional observations from a re-analysis of the deposited data

Results flagged for a closer look

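In 4 members the effect of siRND3 differed between 48 h and 24 h in the limma model of 4 groups, with 1 array per group at 48 h. From 24 h to 48 h the effect shifted by 1.25 on the log2 scale for PERP, -1.23 for POLH, -1.13 for TIGAR and -0.82 for RRM2B. The sign was the same in all 12 alternatives run for each gene, which spanned 1.17 to 1.29 for PERP, -1.30 to -0.75 for POLH, -1.19 to -0.66 for TIGAR and -0.84 to -0.59 for RRM2B. The calls, unlike the signs, were mostly lost when arrays at 24 h were left out in turn. With 1 array per group at 48 h, an outlying array at that time could not be detected.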

How the results depend on the processing

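BBC3, BTG2, TP53INP1, TIGAR and POLH passed in the same direction at 24 h in all 15 alternatives, with ranges of 0.73 to 0.82, 0.52 to 0.65, -1.27 to -0.79, -1.09 to -0.71 and -0.98 to -0.70. The fit with all 8 arrays is 1 of the 15 but is no check at 24 h. A lone 48 h array adds nothing to the spread, so that fit had to return the main values. XPC and PERP missed the threshold in 8 of the 15, FDXR and FBXO22 in 7 and PPM1D in 6, while TP53I3 passed in 5, CCNG1 in 2 (normexp and the mean of its probes) and GADD45A in 2 (SAM and without siControl replicate 2). Leaving out 1 array at a time gave 2 to 3 members that rose and 3 to 4 that fell, a median difference of 0.0257 to 0.0793, 3 to 7 other pathway genes changed, 0 to 1 members whose effect differed between the times, and 0 to 1 (siControl) and 3 to 5 (siRND3) members changed with time. The median difference was 0.0852 with scaling to the 75th percentile, and that at 48 h 0.188 with the mean of all probes. The count for time in siControl was 2 with normexp, with the deposited values and with the mean of all probes, and that in siRND3 was 8 with the mean of all probes. With the replicate number as a block, 2 members rose, 3 fell and 2 other pathway genes passed. Deviations of same-numbered arrays correlated at 0.002, -0.012 and 0.129, and 3 of 6 arrays correlated best with their own number, so the numbers were not taken to pair the arrays. The sign turned in 5 members that never passed: RPS27L was 0.0255 with scaling to the 75th percentile and -0.102 to 0.0024 with arrays left out in turn, AEN was -0.0021 with normexp and -0.0361 to 0.0587 with arrays left out, and SESN1, SESN2 and PHLDA3 ranged from -0.196 to 0.0578, from -0.0199 to 0.0794 and from -0.0313 to 0.0938 with arrays left out. The causes were not tested. Of 648 values of single genes, 544 kept their sign and their side of the threshold. Both counts include the 24 h values from the fit with all 8 arrays, which could not differ from the main fit.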
